A study of Gallus gallus with 6 samples.

Results

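The hearts of chick embryos on day 4 and day 6 of incubation were compared through their miRNAs, 1 pooled library against 1. The members were the mature sequences in the deposited lists of the libraries CHL1 (day 4, stage HH24) and CHL2 (day 6, stage HH29), 2 of the 6 libraries of the series. Each mature sequence was taken once, with its abundance in reads, from the list of known miRNAs and from the list of sequences absent from miRBase, which are called NSSCs. CHL1 gave 38 sequences, CHL2 gave 170 and both together 178, of 830 in the whole series. Both groups were Gallus gallus embryos from hatchery eggs, with no treatment or genetic change named. Strain and sex were not given in the sources used here. The hearts had been separated from the embryos, and the RNA of each stage was a pool whose number of hearts was not given. With 1 library a side no test between days could be made. Intervals cover the counting of reads only, not the spread between embryos or between library preparations, and PCR copies of 1 molecule were not told apart.

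A miRNA is a short RNA cut from a hairpin precursor, and it lowers the output of messenger RNAs that pair with its seed, the bases 2 to 8 from its 5′ end. Members of a family share the seed, and several families are cut from 1 long transcript and are therefore neighbours in the genome. In the heart, miR-1, miR-133, miR-208 and miR-499 are the well known miRNAs of muscle cells, and miR-126 lies within a gene of endothelial cells. The miR-17-92 cluster is known from dividing cells, let-7 from differentiating ones, and miR-10 from the HOX gene clusters that pattern the body axis.

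The sequences on which the comparison turned are shown first, 5′ to 3′ with T for U as deposited and with the seed in capitals. The first set holds the most abundant sequence of both days, examples of sequences with a higher or a lower share on day 6, and a muscle miRNA listed on day 6 alone.
miR-10: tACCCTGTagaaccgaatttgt
miR-26: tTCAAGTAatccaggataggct
NSSC on the miR-21 arm: tAGCTTATcagactgatgttgac
miR-148: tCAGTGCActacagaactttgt
miR-126: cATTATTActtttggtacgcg
miR-100: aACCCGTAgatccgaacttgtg
miR-99: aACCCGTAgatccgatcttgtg
miR-133: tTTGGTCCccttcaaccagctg
The second set holds the 4 loci at which the 2 days listed forms of different length, shown because the length decided what could be compared. At each of them the 5′ end was the same and the form of day 6 ran 1 base further at its 3′ end.
miR-30 on day 4: tGTAAACAtccccgactggaagc
miR-30 on day 6: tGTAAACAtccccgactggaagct
miR-181 on day 4: aACATTCAttgctgtcggtgggt
miR-181 on day 6: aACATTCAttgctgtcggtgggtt
miR-19 on day 4: tGTGCAAAtccatgcaaaactg
miR-19 on day 6: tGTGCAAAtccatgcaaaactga
miR-454 on day 4: tAGTGCAAtattgcttatagggt
miR-454 locus on day 6, as an NSSC: tAGTGCAAtattgcttatagggtc
The seeds show that miR-100 and miR-99 are 1 seed family, and that a base more or less at the 3′ end left the seed as it was.

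The lists of the 2 days differed far more in depth than in their leading sequence. CHL1 listed 17575 reads and CHL2 listed 3323231, which was 189 times as many. The total behind the deposited RPM values, which scale the reads of each library to a common total, differed by 3.31 times only, 2793093 reads on day 4 and 9246255 on day 6, so that the listed miRNAs made up 0.629% of that total on day 4 and 35.9% on day 6. No count under 6 reads stood in either list, but the lists name 1 form for an arm, and forms of up to 7 reads on the other arm of a listed hairpin of day 4 had no entry of their own. A sequence that was not listed need not have been absent, and no fold is given against the day that did not list it. Shares of listed reads were therefore the measure compared, and they say nothing of the amount of miRNA per cell. The lists held 27 miRBase numbers and 4 NSSCs on day 4, and 87 numbers and 58 NSSCs on day 6.

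miR-10, from the HOX region of chromosome 7 (chr7:17389110-17389131, minus strand, Gallus gallus v.2.1), dominated both libraries. It had 14161 reads on day 4, which was 80.6% of listed reads (95% Wilson interval 79.98 to 81.2%), and 2403702 reads on day 6, which was 72.3% (72.3 to 72.4%). The share on day 6 was thus 0.898 times that of day 4. A sequence with so large a share sets the scale for all others. Without it 3414 reads were left on day 4 and 919529 on day 6, and each log2 ratio of shares was lower by 0.51. In the other 4 libraries miR-10 was not listed on days 8 and 10, and it held 13.3% on day 12 and 19.8% on day 14.

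Of the 38 sequences of day 4, 30 were listed on day 6 as well, 28 of them known and 2 NSSCs. They were 78.9% of the sequences of day 4 and 17.6% of those of day 6. These 30 held 99.4% of the reads of day 4 and 91.6% of those of day 6, or 96.8% and 69.6% with miR-10 left out. The remaining reads of day 6 were in sequences that day 4 did not list in the same form. The largest of these were miR-30 sequences of 57146, 56848 and 56090 reads, and day 4 listed miR-30 with other sequences. By miRBase number 24 were listed on both days, 63 on day 6 alone and 3 on day 4 alone. Over the 24 shared numbers Spearman's rho of the reads was 0.698, given as a description of numbers that share 2 libraries. Among the 10 items of most reads, 7 were common to the days, but their order differed. Behind miR-10 stood miR-26, the NSSC on the miR-21 arm and miR-92 on day 4, and miR-30, miR-148 and miR-92 on day 6.

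**Figure D1:**
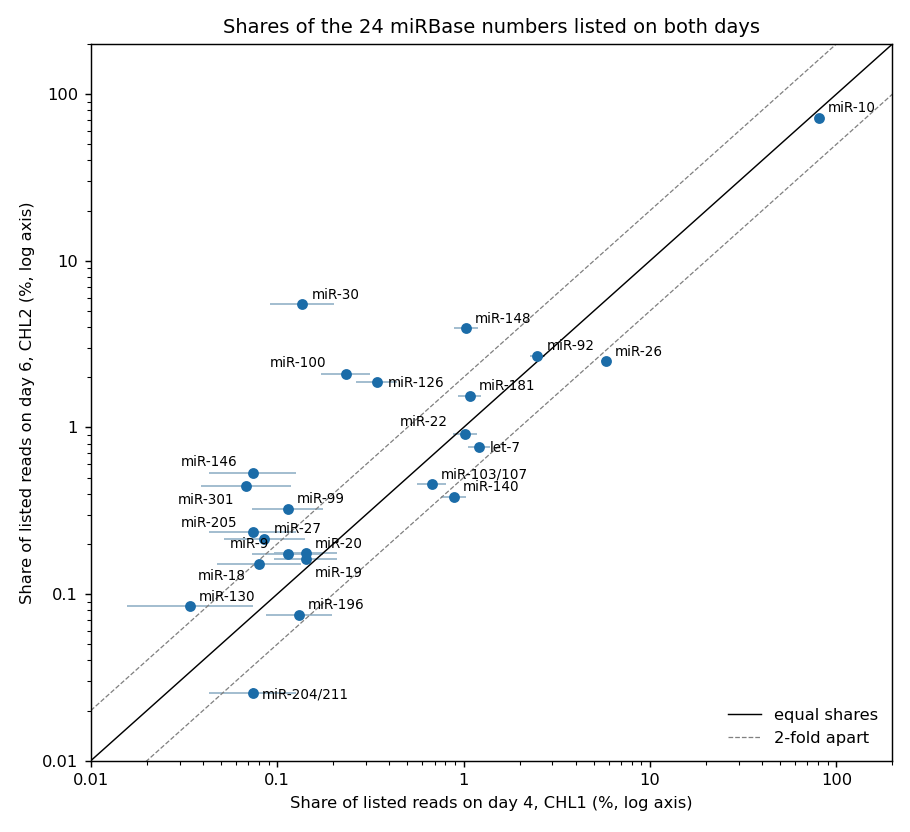
Shares of listed reads on day 4 (horizontal, %) and day 6 (vertical, %) of the 24 miRBase numbers listed on both days, on log axes, with 95% Wilson intervals of the counts as bars. miR-10 lies near the line of equal shares at 80.6% and 72.3%, and miR-30, miR-100, miR-146, miR-301 and miR-126 lie farthest above it.

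By share of listed reads, 10 of the 24 shared numbers were at least 2-fold higher on day 6 (41.7%) and 3 were at least 2-fold lower (12.5%). Without miR-10, 8 of 23 were at least 2-fold higher (34.8%) and 6 were at least 2-fold lower (26.1%). These percentages are also the whole background, since every number that could be compared is counted. That set was itself shaped by the listing. It leaves out the 63 numbers listed on day 6 alone. A number whose day 6 reads equal under 6 at the listed depth of day 4 could enter only if lower on day 6. The median log2 ratio was 0.57 with miR-10 and 0.11 without it, so the split of higher and lower numbers depended in part on that 1 sequence. It also depended on the sequences added up. With only the sequences listed on both days, and miR-10 kept, 7 of the 24 were at least 2-fold higher and 4 lower. With the deposited RPM in place of shares every log2 ratio was higher by 5.84, and all 24 numbers were at least 2-fold higher on day 6, so that each direction given here is relative to the listed miRNAs of its own day. The counting interval of the ratio lay above 0 for 12 numbers, below 0 for 7 and included 0 for 5, and without miR-10 the figures were 9, 8 and 6.

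**Figure D2:**
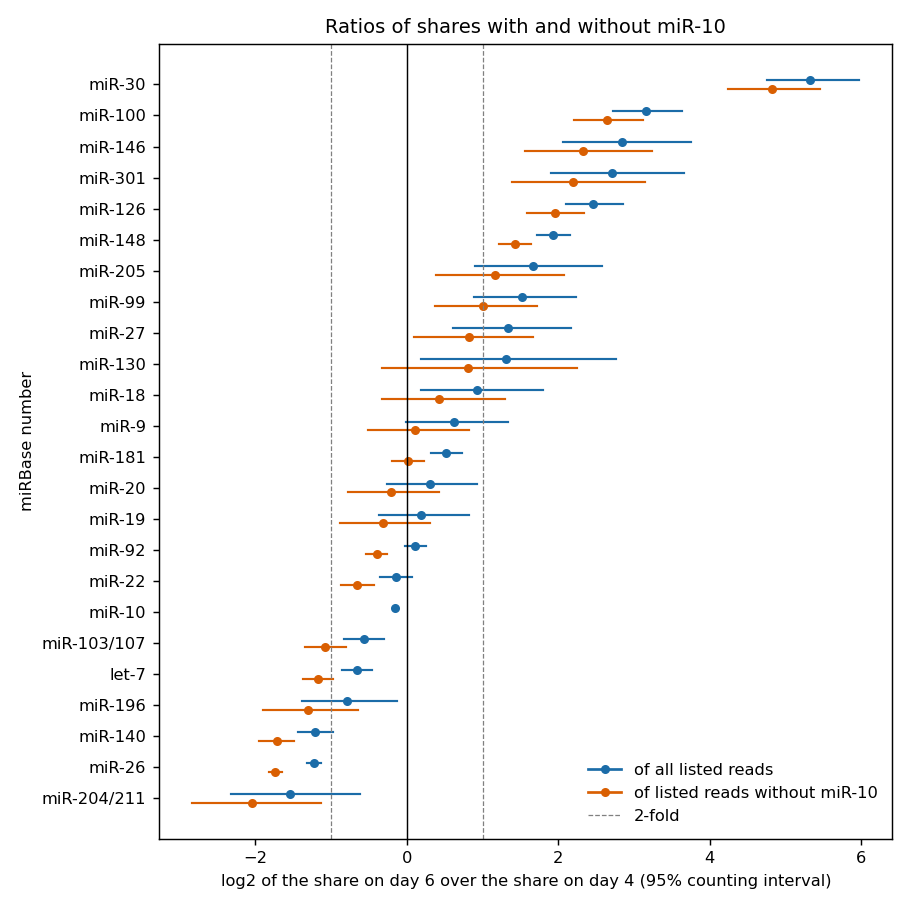
The log2 ratio of the share on day 6 over the share on day 4 for the 24 shared miRBase numbers, over all listed reads (blue) and over listed reads without miR-10 (orange), with 95% counting intervals as lines. miR-30 stands highest at 5.33 and miR-204/miR-211 lowest at -1.54, and leaving out miR-10 moves every point by 0.51 to the left. miR-204/miR-211 could be listed on both days only with a lower share on day 6.

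The listed arm of an endothelial miRNA and the pair miR-100 and miR-99 were among those with the higher share on day 6. miR-126, which lies in a gene of endothelial cells, had 60 reads on day 4 and 62609 on day 6, or 0.341% and 1.88% of listed reads. Its share was 5.52-fold higher on day 6 (log2 ratio 2.46, 95% counting interval 2.0998 to 2.8545), and on the scale without miR-10 the log2 ratio was 1.95. These values are of the listed arm alone. The other arm of the hairpin had 14 reads on day 4 and 3241 on day 6. That difference was more than the 189 times of all listed reads and less than the 269 times without miR-10. The clearly higher share on day 6 was therefore seen in the listed arm only. miR-100, which is cut from a transcript that also carries a let-7 hairpin, had 41 reads on day 4 and 69146 on day 6. That was 0.233% and 2.08%, a log2 ratio of 3.16 (2.72 to 3.64). Its seed partner miR-99 had 20 and 10823 reads, a log2 ratio of 1.52 (0.89 to 2.23). Both sequences of this seed were therefore higher on day 6, and the seed as a whole had 61 and 79969 reads and a log2 ratio of 2.79. In bulk RNA more endothelial cells and more of the listed miR-126 arm per cell cannot be told apart, and why the 2 arms differed was not tested.

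miR-148, known from liver and from DNA methylation control in mammals, had 181 reads on day 4 and 130914 on day 6, 1.03% and 3.94% of listed reads. Its log2 ratio was 1.94 (1.73 to 2.15), the narrowest interval among the numbers at least 2-fold higher. miR-146, a regulator of inflammatory signalling in mammals, had 13 and 17595 reads, a log2 ratio of 2.84 (2.07 to 3.75). miR-27, of the miR-23 clusters and known from blood vessels, had 15 and 7148 reads, a log2 ratio of 1.33 (0.61 to 2.17). On the scale without miR-10 the log2 ratio of miR-27 was 0.82, under 2-fold. For miR-146 and miR-27 the interval was wide because day 4 gave few reads, and 16 of the 27 numbers of day 4 had under 30.

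The 3 miRNAs of the miR-130 seed share a locus on chromosome 15 (minus strand, 399859 to 408430, as the lists give it). At this locus only miR-301 had a clearly higher share of listed reads on day 6 in a form listed on both days. miR-301 had 12 reads on day 4 and 14802 on day 6, a log2 ratio of 2.71 (1.90 to 3.66). miR-130 had 6 and 2817 reads, a log2 ratio of 1.31 (0.19 to 2.76), and 0.80 without miR-10, where the interval included 0. Of the 2817 reads, 887 were a second sequence on chromosome 19 that day 4 did not list, and the sequence of chromosome 15 alone had 6 and 1930 reads, a log2 ratio of 0.77 whose interval included 0 (-0.36 to 2.21). miR-454 was listed as known with 16 reads on day 4, and on day 6 the same locus stood among the NSSCs with 11471 reads in a form 1 base longer. Set against each other, these 2 forms gave a log2 ratio of 1.92 (1.22 to 2.73). Within the cluster, miR-301 held 35.3% of the reads on day 4 (21.5 to 52.1%) and 52.5% on day 6 (51.9 to 53.1%), and miR-130 held 17.6% (8.35 to 33.5%) and 6.84% (6.55 to 7.14%).

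miR-26, the tissue-wide family that lies within genes for phosphatases of RNA polymerase II, was the leading number below the line. It had 1023 reads on day 4 and 82749 on day 6, or 5.82% and 2.49% of listed reads. The share was 2.34-fold lower on day 6 (log2 ratio -1.23, interval -1.31 to -1.13), and without miR-10 the log2 ratio was -1.74. miR-140, known from cartilage, had 156 and 12746 reads, a log2 ratio of -1.21 (-1.44 to -0.97). miR-204/miR-211, known from eye and choroid plexus, had 13 and 846 reads, a log2 ratio of -1.54 (-2.32 to -0.62). Its 846 reads equal 4.47 reads at the listed depth of day 4, under the lowest count listed. Listing on both days thus required a lower share on day 6, and its direction is not a result. On the scale without miR-10, let-7 (-1.17), miR-103/miR-107 (-1.08) and miR-196 of the HOX clusters (-1.31) were at least 2-fold lower as well. With miR-10 their log2 ratios were -0.66, -0.57 and -0.79, so for these 3 the call rested on the choice of the total. For let-7 it also rested on the sequences added up. Its sequences listed on both days alone gave a log2 ratio of -1.04 with miR-10.

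The largest difference downwards among sequences of more than 100 reads on day 4 was in an NSSC. It lies on the mature arm of miR-21, a miRNA of growing and fibrotic tissue in mammals, at chr19:7322089-7322111 on the plus strand, where another library of the series lists miR-21 as known. It had 523 reads on day 4 and 12837 on day 6, or 2.98% and 0.386% of listed reads. The share was 7.70-fold lower on day 6 (log2 ratio -2.95, interval -3.07 to -2.82), and without miR-10 the log2 ratio was -3.46. A second shared NSSC, on a miR-146 arm of chromosome 13, had 10 reads on day 4 and 85 on day 6, a log2 ratio of -4.48 (-5.42 to -3.36). Its 85 reads equal 0.45 reads at the listed depth of day 4, under the lowest count listed. It could therefore be listed on both days only with a lower share on day 6, and no direction was read from it. The known miR-146 of chromosome 4 went the other way, and with the NSSC added to it the log2 ratio of miR-146 was 2.02 in place of 2.84.

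The families of the miR-17-92 cluster were under 2-fold apart on both scales. miR-92, of the miR-17-92 cluster, had 438 reads on day 4 and 89525 on day 6, 2.49% and 2.69% of listed reads. Its log2 ratio was 0.11 (-0.02 to 0.25) with miR-10 and -0.40 (-0.53 to -0.26) without it. The ratio of miR-20 was 0.30 (-0.26 to 0.93), that of miR-19 was 0.19 (-0.37 to 0.82) and that of miR-18 was 0.93 (0.18 to 1.80). Of the 5047 miR-18 reads of day 6, 1347 were a sequence on chromosome 4 that day 4 did not list. The shared miR-18 sequence alone had a log2 ratio of 0.48, whose interval included 0 (-0.27 to 1.36). The cluster on chromosome 1 (minus strand, 152248079 to 152248705) allows a comparison in which neither miR-10 nor the listed total enters, the make-up of the cluster itself. The lowest count listed and the listing of 1 form for an arm still bear on it. It had 491 reads on day 4 and 101167 on day 6. miR-92 held 89.2% of them on day 4 (86.1 to 91.6%) and 88.5% on day 6 (88.3 to 88.7%). miR-20 held 2.85% and 2.52%, miR-18 held 2.85% and 3.66%, and each interval of day 4 included the value of day 6. Of the 2 miR-19 sequences, 1 was listed in different forms, with 3.67% on day 4 and 4.02% on day 6. The other held 1.43% and 1.31%.

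miR-181, known from lymphocytes and muscle differentiation in mammals, and miR-22, known from heart muscle in mice, were near the line too. miR-181 had 190 and 51562 reads, a log2 ratio of 0.52 (0.32 to 0.73) with miR-10 and 0.01 without it. miR-22 had 179 and 30534 reads, a log2 ratio of -0.15 (-0.36 to 0.07) with miR-10 and -0.66 without it. miR-9, a neural miRNA, had 20 and 5824 reads, and its log2 ratio of 0.62 had an interval that included 0 (-0.01 to 1.34). Without miR-10 the counting interval was -0.19 to 0.22 for miR-181 and -0.87 to -0.44 for miR-22. The intervals of these numbers thus lay within 2-fold on both scales, while that of miR-9 with miR-10 reached beyond 2-fold.

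The length of the listed sequences differed between the days. No sequence of day 4 was longer than 23 nt, and 16 sequences of day 6 had 24 nt. Without miR-10 the 24 nt sequences held 205487 of 919529 reads on day 6, or 22.3%. In the other libraries, 24 nt sequences were listed on day 12 (32 sequences) and none was listed on days 8, 10 and 14. Neither list gave more than 1 sequence for an arm of a locus, so a locus appeared in 1 length only. At the miR-30 locus of chromosome 2 (minus strand) the 23 nt form had 14 reads on day 4 and the 24 nt form 56090 on day 6. At the miR-181 locus of chromosome 8 the pair had 18 and 11765 reads, the latter for a sequence with a further locus on chromosome 17, and at the miR-19 locus of chromosome 1 it had 18 and 4067. Whether the lengths differed in the embryos or in the making of the lists cannot be told apart.

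**Figure D3:**
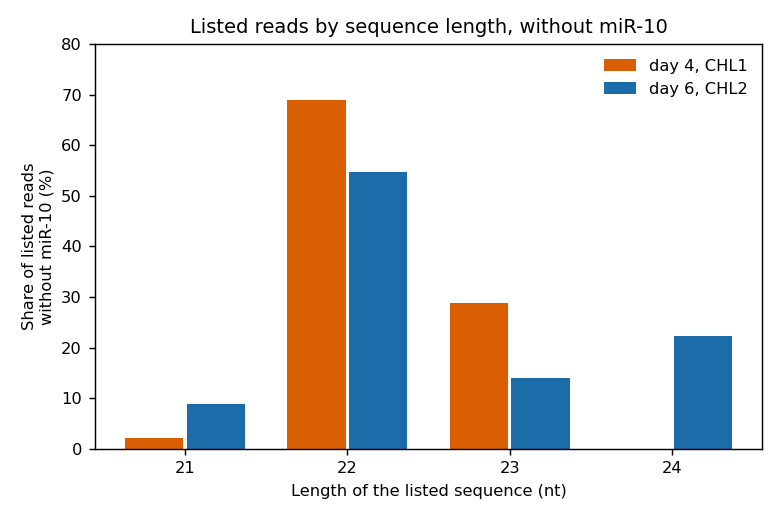
Share of listed reads without miR-10 (%, bars from 0) by the length of the listed sequence (nt), day 4 in orange and day 6 in blue. The 24 nt bar is absent on day 4 and reaches 22.3% on day 6, while the 23 nt bar stands at 28.9% on day 4 and 13.997% on day 6.

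miR-30 was the number whose result turned on this. Its 2 sequences of day 4 had 24 reads, 0.137% of listed reads, and its 5 sequences of day 6 had 182708 reads, 5.50%. The log2 ratio over the number was 5.33 (4.76 to 5.97), the largest of all shared numbers. Of the 5 sequences of day 6, 4 had 24 nt, with 57146, 56848, 56090 and 10476 reads. The remaining sequence, of 22 nt, was the 1 form listed on both days.
miR-30, both days: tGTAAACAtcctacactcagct
It had 10 reads on day 4 and 2148 on day 6, 0.0569% and 0.0646% of listed reads, a log2 ratio of 0.18 (-0.70 to 1.25). The pair of 23 and 24 nt forms at the locus of chromosome 2 gave a log2 ratio of 4.41. A limit of 23 nt drops 4 of the 5 sequences of day 6 and none of day 4, so no direction was read from it. miR-30 is an abundant family of heart muscle in mammals.

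The same comparison was made sequence by sequence. Of the 30 sequences listed on both days, 7 were at least 2-fold higher on day 6 (23.3%) and 7 were at least 2-fold lower (23.3%), and without miR-10 the figures were 6 (20.7%) and 10 (34.5%) of 29. The lower sequences include miR-204/miR-211 and the NSSC on the miR-146 arm, whose listing on both days required a lower share on day 6. Without miR-10, 6 reads at the listed depth of day 4 equal 1616 reads of day 6. On that scale 5 shared sequences were under this line, among them the let-7 sequences of 1182 and 1147 reads on day 6. Listing of these 5 on both days required a lower share on that scale. The median log2 ratio was 0.05 with miR-10 and -0.42 without it. miR-205, a miRNA of epithelia, had a log2 ratio of 1.67 as a number. Its shared sequence, on chromosome 26, had 13 reads on day 4 and 2621 on day 6, a log2 ratio of 0.09 (-0.68 to 1.00). The rest of the number on day 6 was a second sequence, on chromosome 1, with 5208 reads and no listing on day 4. For miR-100, miR-126, miR-148, miR-146, miR-301 and miR-99 the number was a single sequence of equal length on both days, so that the ratios above are those of the exact sequence.

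let-7, whose level is known to climb with differentiation, had 4 sequences listed on both days. They are given here because they share the seed and differ only in the bases behind it.
let-7, chromosome 12, 6302556: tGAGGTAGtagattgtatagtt
let-7, 4 loci: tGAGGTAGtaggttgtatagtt
let-7, chromosome 12, 2809135: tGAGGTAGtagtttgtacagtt
let-7, chromosome 1, 34895692: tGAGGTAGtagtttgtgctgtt
The first had 87 reads on day 4 and 8830 on day 6, a log2 ratio of -0.90 (-1.20 to -0.58). The second had 62 and 8457 reads, a log2 ratio of -0.47 (-0.83 to -0.09). The third and the fourth had 33 and 31 reads on day 4 and 1182 and 1147 on day 6. Their log2 ratios were -2.40 (-2.90 to -1.85) and -2.35 (-2.87 to -1.79), so that their intervals did not overlap those of the first and the second. At the listed depth of day 4 their day 6 reads equal 6.25 and 6.07, against 46.7 and 44.7 for the first and the second. With 6 reads as the lowest count listed, a share clearly higher on day 6 could not have been listed for them. The contrast is thus favoured by the listing. As shares of all let-7 reads the third went from 15.5% on day 4 to 4.64% on day 6 and the fourth from 14.6% to 4.501%.

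Another let-7 sequence, downstream of miR-99 on chromosome 1, was listed on day 6 alone.
let-7 beside miR-99: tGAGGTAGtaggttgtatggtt
It had 5359 reads on day 6, or 28.3 at the listed depth of day 4, where it was not listed. miR-99, which spans 773 bases together with it, was listed on day 4 with 20 reads. In the sister cluster on chromosome 24, miR-100 held 39.8% of the cluster's reads on day 4 (30.9 to 49.5%) and 89.1% on day 6 (88.9 to 89.3%), and let-7 held the rest. The let-7 sequence of that cluster is the one found at 4 loci, so its reads could not be assigned to this locus alone.

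The depth of day 4 was then laid on the list of day 6. At that depth 6 listed reads equal 1135 reads of day 6, or 1616 with miR-10 left out. Of the 170 sequences of day 6, 118 (69.4%) would have had under 6 reads and 52 would have had 6 or more. The 118 held 0.587% of the reads of day 6, and 53 of them were NSSCs. Day 4 listed 28 of the 52 and 2 of the 118. These 2 were miR-204/miR-211 and the NSSC on the miR-146 arm, which could be listed on both days only with a lower share on day 6. Without miR-10 in either total 124 sequences were under 6, and day 4 listed 5 of them. The answer hung on what was taken as depth, since 50 sequences would have been under 6 by the total behind the RPM values and none by the clean reads, of which day 4 had 2.59 times as many as day 6. The sequences just under the line were miR-429 with 5.78 expected reads and an NSSC with 5.25, and those just over it were the third and the fourth let-7 sequence with 6.25 and 6.07.

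**Figure D4:**
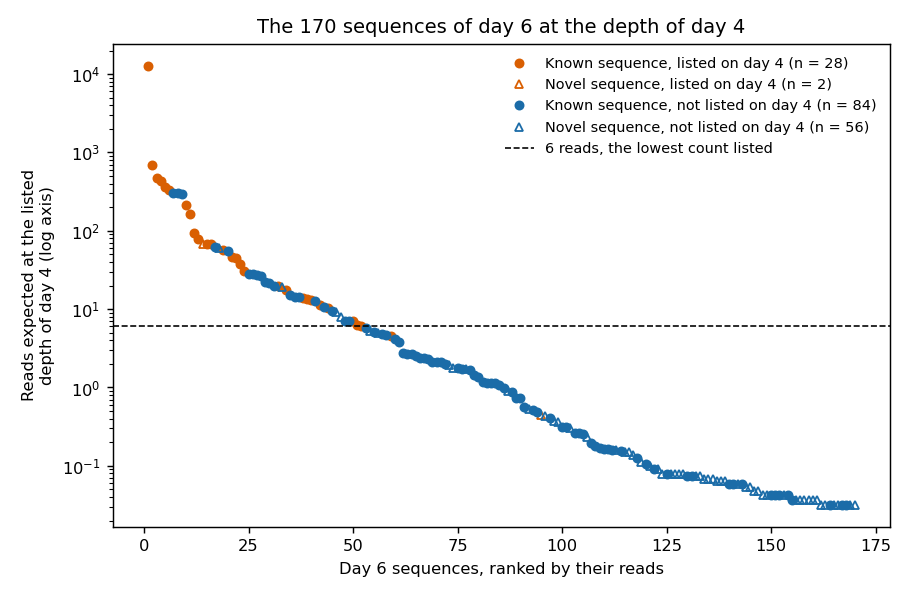
The 170 sequences of day 6 ranked by reads (horizontal) with the reads expected at the listed depth of day 4 (vertical, log axis), known sequences as circles and NSSCs as triangles, orange where day 4 listed the same sequence. Of the 52 sequences at or above the dashed line of 6 reads 28 are orange, and of the 118 below it 2 are.

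By the listed depth 24 sequences of day 6 had 6 or more expected reads and no listing on day 4. They held 28.3% of the reads of day 6 without miR-10, and 6 of them had 24 nt, a length that day 4 did not list. At 4 of the 24 the locus was listed on day 4 in the shorter form shown above. The other 20 had no form on the same arm listed on day 4, and 10 of the 24 belonged to a number that day 4 listed. Seen by number, 10 numbers of day 6 had 6 or more expected reads and no listing on day 4. They were miR-16 with 28.4 expected reads, miR-122 with 26.1, miR-101 with 22.02, miR-128 with 19.6, miR-133 with 15.97, miR-2964 with 15.0, miR-138 with 14.2, miR-15 with 12.3, miR-218 with 10.6 and miR-2188 with 9.56. The value of miR-133 is a sum over 2 sequences, of which 1 had 6 or more (14.2), and that of miR-15 a sum over 3, of which 1 had 6 or more (7.03). With the upper 95% counting limit of 5 reads, 11.7, as the line, 18 sequences were still expected and not listed.

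Muscle and cell cycle miRNAs were among these. miR-16, which with miR-15 holds back the cell cycle, had 5361 reads on day 6 and was not listed on day 4. miR-15, its neighbour on chromosomes 1 and 9, had 2322 reads in 3 sequences, the third of them on chromosome 4. miR-133, which restrains the division of heart muscle cells in mice, had 3020 reads in 2 sequences. Of these, 330 were a sequence with 4 loci, 1 of them beside miR-206 on chromosome 3. The other 2690 were the printed sequence, which has 3 loci, 1 of them on chromosome 23. An NSSC 1 base longer than the printed miR-133, at chr2:105670370-105670392, added 3634 reads. Together they made 6654 reads, or 35.2 at the depth of day 4. miR-138, known from chamber patterning of the zebrafish heart, had 2679 reads, and miR-218, cut from introns of SLIT genes, had 2013.

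The 8 sequences of day 4 that day 6 did not list included the 4 shorter forms. The other 4 were these.
miR-199: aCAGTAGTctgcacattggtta
miR-144: gGATATCAtcatatactgtaagt
NSSC of chromosome 1: gCCGCCCCccgtcccgagcgccc
NSSC of chromosome 17: aGAATTGTgtctggacatctgt
miR-199, a miRNA of fibroblasts and smooth muscle, had 14 reads on day 4 (chr17:5667203-5667224, plus strand). At the listed depth of day 6 that would be 2647 reads, but 46.3 by the total behind the RPM values and 5.41 by the clean reads. miR-144, of red blood cells, had 6 reads on day 4. On day 6 the list gave the other arm of this hairpin as an NSSC, with 1712 reads, so the hairpin was read on both days and the listed arm differed. The NSSC of chromosome 1 had 16 reads and came from a hairpin of 91.8% G and C, the highest of either list. The NSSC of chromosome 17 had 6 reads.

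The labelled tissue was checked against lists of miRNAs of heart and skeletal muscle and of other cell types. Of the 5 numbers of heart and skeletal muscle (miR-1, miR-133, miR-206, miR-208 and miR-499) day 4 listed none. Day 6 listed miR-133 and miR-206, with 6818 reads or 0.205%, of which miR-206 had 164 reads. miR-1, miR-208 and miR-499 were listed on neither day, so the defining miRNAs of heart muscle were for the most part absent from both lists. Across the series miR-1 and miR-208 were in no list, and miR-499 was listed on day 10 alone. The single endothelial number, miR-126, was listed on both days with the values given above.

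Of the 90 numbers listed on either day, day 4 listed 27 and day 6 listed 87. The muscle list above and the lists of other cell types are read beside that. This background holds known numbers only and leaves out those listed on neither day, so it is not like for like. The lists keep members listed on neither day and also count NSSCs on a known arm. Such were miR-194 and miR-215 of the abdominal organs and miR-21 of the fibroblast list. Neural numbers were 1 of 8 on day 4 (miR-9) and 7 of 8 on day 6, with 0.114% and 0.385% of listed reads. Numbers of abdominal organs were 0 of 7 and 4 of 7, and the 4 made up 0.201% on day 6, close to the share of the muscle numbers. miR-122, the miRNA of liver cells, gave 4939 of these 6666 reads. The epithelial numbers were 1 of 5 (miR-205) and 4 of 5, with 0.0740% and 0.305%. Numbers of white blood cells were 1 of 4 and 2 of 4, with 0.131% and 0.559%. Of 2 red blood cell numbers day 4 listed miR-144 and day 6 neither, apart from the NSSC on the other arm of miR-144, and of 6 numbers of fibroblasts and smooth muscle each day listed 2. The part of other tissues in the differences between the days was not tested. The 6 neural numbers of day 6 alone summed to 36.9 expected reads at the listed depth of day 4, of which miR-128 made 19.6 and miR-138 made 14.2. The miR-138 reads counted here are the same 2679 reads given above, where miR-138 was named as known from the zebrafish heart.

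**Figure D5:**
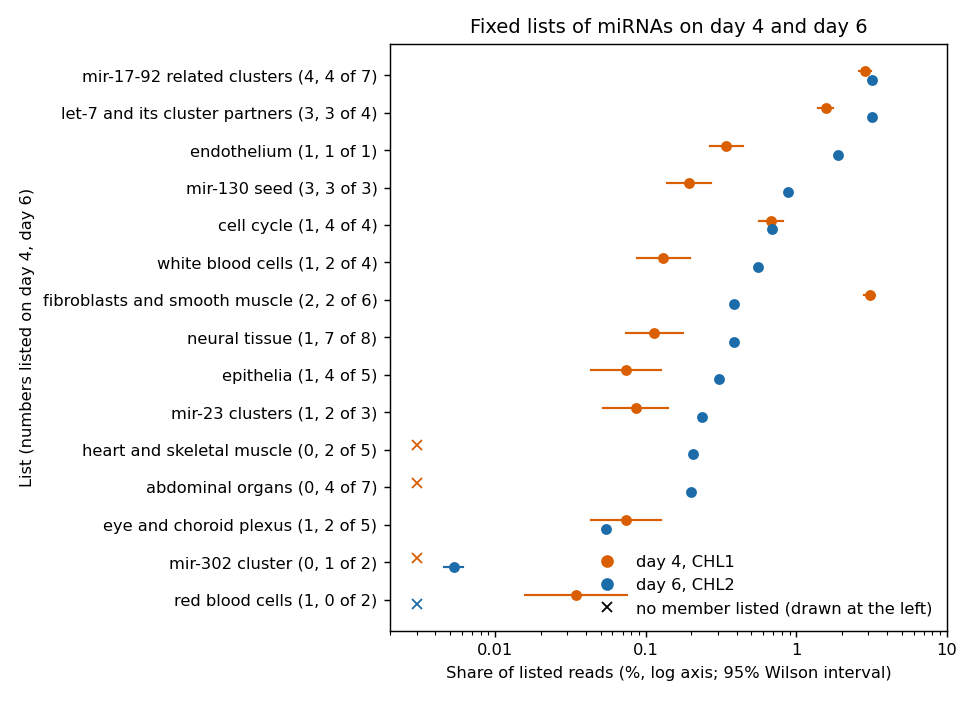
Share of listed reads (%, log axis) of 15 lists of miRNAs on day 4 (orange) and day 6 (blue), with 95% Wilson intervals, NSSCs on a known mature arm counted with their number and crosses at the left where no member was listed. The list of fibroblasts and smooth muscle stands at 3.06% on day 4 and 0.387% on day 6, and the muscle list has a point on day 6 only.

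The summed share of the fibroblast and smooth muscle list was more than 2-fold lower on day 6. It had 537 reads on day 4, 3.06%, and 12851 on day 6, 0.387%. Nearly all of these reads were the NSSC on the miR-21 arm. miR-199 was listed on day 4 alone, miR-29 with 14 reads on day 6 alone, and miR-143, miR-145 and miR-214 on neither day. The HOX list had 80.7% and 72.4% of listed reads, nearly all of it miR-10. With miR-10 left out of both the list and the totals, only miR-196 remained, with 23 reads on day 4. Its shares of 0.674% and 0.273% are those behind the miR-196 ratio given above. The miR-17-92 related clusters had 2.86% and 3.18% of listed reads, or 14.7% and 11.5% without miR-10. The cell cycle list had 0.677% and 0.689%, or 3.49% and 2.49% without miR-10. On day 4 the cell cycle sum was miR-103/miR-107 alone, which had 0.456% on day 6, where miR-15, miR-16 and miR-34 made up the rest. The let-7 list with its cluster partners had 1.56% and 3.17%, and the higher share of day 6 lay in miR-100 and miR-99, since let-7 itself was lower.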

How the data were processed

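Small RNA of 18 to 30 nt from pooled chick hearts had been sequenced on the Illumina platform. The authors trimmed adapters, mapped unique tags with BLAT to Gallus gallus v.2.1 and searched miRBase. The submitters' processing notes also name TopHat and Cufflinks without versions. The abundances were deposited as whole-number counts of reads, repeated for each locus. The RPM deposited by the authors equalled these counts times 1 constant per library on all 45 and 190 lines. The G and C content of hairpins was deposited in percent. Columns of the authors' target predictions were not used here.

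Each sequence was counted once, and names that share a number were added up. Ratios of shares carry exact conditional intervals and shares Wilson intervals, both at 95%, from Python 3.11.15 and scipy 1.17.1. The intervals of the ratios were checked on simulated data drawn by the counting model that they assume. The simulation held no PCR copies and no lowest count listed, so it checks the calculation only. The line of 6 reads is the lowest count listed, not a known limit of detection. An NSSC was placed on a known arm with at least 15 nt of overlap, and loci within 10 kb on 1 strand formed a cluster. At least 2-fold apart is a rule of size, not a test. Members, lists and the rule for the miRNAs named (shared numbers, leading numbers, numbers of 1 day, and list members) were chosen with earlier results of these data known. Sets of printed sequences, the 24 nt comparison and the other let-7 sequences were chosen after the values were seen. No genome of this build was used, so gene annotations are not given.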

Additional observations from a re-analysis of the deposited data

How the results depend on the processing

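The comparison rested on the total used. With the deposited RPM every log2 ratio was higher by 5.84, and over the clean reads by 8.93. All 24 shared numbers (23 without miR-10) were then at least 2-fold higher on day 6 and 0 lower. The numbers and NSSCs that were lower by share turned, with RPM and clean reads, to 4.61 and 7.71 for miR-26, 4.63 and 7.72 for miR-140, 4.30 and 7.39 for miR-204/miR-211, 2.89 and 5.99 for the NSSC on the miR-21 arm, and 1.36 and 4.46 for the NSSC on the miR-146 arm. miR-30 turned to -0.99 with sequences of 23 nt or shorter, an alternative chosen after seeing the data that by construction drops 4 of its 5 day 6 sequences. With sequences of 22 nt alone 5 numbers were higher and 3 lower of 14, and without miR-10 5 and 3 of 13. At 4-fold 5 were higher and 0 lower, and without miR-10 4 and 1. The day 6 sequences under 6 reads were 50 by the total behind the RPM values, 0 by the clean reads and 56 of 85 at 22 nt. Counts under the other settings (the known list alone, NSSCs joined to their arm, at least 10 reads, every locus line, limits of 3 and 10 reads and, chosen after seeing the data, grouping by seed, the same exact sequences, 23 nt or shorter, and the upper limit of 5 reads) stayed within 1.5 times. No paired analysis was possible because each day had 1 library. On day 4, 16 of 27 numbers had under 30 reads. The causes of the difference in listed reads were not tested.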

Other observations

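The opposite arms of the listed hairpins were deposited beside them, with counts down to 1 read. Day 4 gave an opposite arm for 9 of 45 locus lines and day 6 for 81 of 190. The shares below set 1 form of the listed arm against the sum of all forms of the other arm, so they can overstate the other arm. For miR-126 that sum was over 2 forms on day 4 and 6 on day 6. For miR-126 the listed form had 60 reads and the other arm 14 on day 4, so that the other arm held 18.9% of these reads (95% Wilson interval 11.6 to 29.3%). On day 6 the figures were 62609 and 3241 reads, or 4.92% (4.76 to 5.09%). For miR-130 the other arm held 40.0% on day 4 (16.8 to 68.7%), from 4 of 10 reads, and 4.55% on day 6 (3.73 to 5.55%). For miR-205 it held 13.3% (3.74 to 37.9%), from 2 of 15 reads, and 0.757% (0.491 to 1.17%). For miR-140 it held 0.637% (0.113 to 3.52%) and 3.26% (2.97 to 3.57%), and for miR-26 0.0977% (0.0172 to 0.551%) and 0.235% (0.204 to 0.270%). These 5 loci were those with a read of the other arm on day 4, a choice that favours a high share there. At the other 20 of the 25 loci listed on both days with such a read on either day, day 4 had none.

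At 2 let-7 hairpins of day 6 both arms were listed, so that the other lengths of an arm could be read. On chromosome 26 the listed form had 8457 of the 9233 reads of its arm, 91.6% in 7 forms. On chromosome 12 the listed forms held 96.2% and 79.5% of the reads of the 2 arms. The abundance in the lists was therefore that of 1 form of an arm, not of all its lengths, at these hairpins.

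On chromosome 17 the days listed opposite strands of 1 place. Day 4 gave an NSSC on the plus strand (5577871 to 5577892) with 6 reads, and day 6 gave miR-2964 on the minus strand (5577829 to 5577850) with 2830 reads, and the hairpins overlapped by 58 bases.

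Hairpins of NSSCs under 6 expected reads were richer in G and C (median 58.2%) than those of the known sequences under 6 (47.9%) and of the sequences listed on both days (45.9%). A stretch of chromosome 1 from 104452109 to 104487576 on the minus strand gave the NSSC of day 4 with 91.8% G and C and 4 others on day 6, with 6, 6, 28 and 7 reads. The same sequence was not listed on both days there.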
